A study of Mus musculus with 10 samples.

Results

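The 56 genes described here encode developmental transcription factors that Polycomb proteins are known to hold silent in many differentiated tissues. They were taken by symbol from a fixed list, HOX genes left out, among 24016 genes present in both deposited expression tables, and all 56 were found. No level of expression was required, since the question was whether silent or weakly expressed targets became expressed when EZH2 was inhibited. They were the paired box (8), T-box (7), basic helix-loop-helix (7), NK and other homeodomain (7), forkhead (5), MSX and DLX (5), EVX, CDX and EN (5), LIM homeodomain (5), GATA and WT1 (3) and SOX (2) factors, with SIX2 and SIX3.

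Polycomb repressive complex 2 (PRC2) places methyl groups on lysine 27 of histone H3 through its catalytic subunit EZH2 or the related EZH1. Polycomb repressive complex 1 (PRC1) recognises that mark and compacts the chromatin. Master regulators of other lineages, which lie in CpG-rich regions, are the best known targets in epithelia, and EZH2 is often abundant in prostate cancer.

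The organoids were mouse prostate cancer cultures whose RNA was sequenced, derived from C57BL/6 animals aged 8 weeks (dorsal-lateral lobe). Every group shared MYC overexpression, floxed Ezh2 alleles, CreERT2 under a PSA promoter, and medium with 10 nM R1881, a synthetic androgen. The chemical experiment set 3 libraries from organoids given 1 µM DZNep, which the series used as an EZH2 inhibitor and which acts on S-adenosylhomocysteine hydrolase, against 3 from DMSO. The genetic experiment set 2 libraries from organoids given 1 µM Tamoxifen, which activates CreERT2, against 2 from ethanol (EtOH), with RNA taken at 3 days in both. The PSA promoter is active in luminal prostate cells, so recombination can differ between cells of an organoid. Whether replicate libraries came from different cultures or mice is not stated, so a p-value here describes variation among libraries that could be purely technical. Histone marks were not analysed here, so Polycomb occupancy of the 56 genes in these organoids is not known from these data.

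Values are RPKM, reads normalised for transcript length and library size, recovered from the deposited log2(RPKM + 1), and changes are differences on that log2 scale, which understates the change of low genes. Each library listed 15021 to 15404 genes above 0, and sequencing depth is not known from RPKM, so no upper limit can be put on a listed 0. EZH2 measured 22.5, 24.2 and 24.7 RPKM in DZNep, against 30.4, 29.8 and 27.1 RPKM in DMSO, and it fell by 0.28 on the log2 scale (SE 0.0585; limma adjusted p = 0.0289). It measured 32.0 and 33.2 RPKM in Tamoxifen, against 27.9 and 34.0 RPKM in EtOH (0.078, SE 0.106; limma adjusted p = 0.720). EZH2 was thus lower in DZNep and overlapped between the Tamoxifen and EtOH libraries. Because a gene-level value also counts exons that are not floxed, it is no check of the deletion.

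Most of the 56 factors were silent or close to it in all 4 groups. The deposited tables listed 20 of them at 0 in all 10 libraries and 27 more above 0 in at least 1 library but under 1 RPKM in every library. The other 9 averaged 1 RPKM or more in at least 1 group, and 7 of these did so in every group. Those 7 go against the label of repressed genes at the level of bulk RNA, which cannot show whether they are silent in some cells.

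The genes at 0 throughout span the lineages that Polycomb targets are known for. They included the neural factors PAX6, NKX2-2, OLIG1, OLIG2, NEUROG1, LHX5, EN1, EVX1 and OTX2, and the kidney and head organiser factor LHX1. NKX2-1 of lung and thyroid, NKX2-5 and HAND1 of the heart, NKX6-1 of the pancreas and SOX17 of the endoderm were also at 0. So were PAX5 of B cells, PAX1 of the sclerotome, TBX18, FOXD3 of the neural crest and BARX1 of the stomach. By family, 6 of the 7 NK and other homeodomain factors were at 0 throughout, and 0 of the 5 MSX and DLX factors.

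TBX3 was the most abundant of the 56 in every group. This T-box repressor, which patterns limb and mammary gland, measured 45.7, 42.6 and 39.5 RPKM in DZNep, against 40.3, 46.0 and 46.3 RPKM in DMSO. Its values were 42.7 and 43.0 RPKM in Tamoxifen, against 45.6 and 43.4 RPKM in EtOH. TBX2, a related repressor of heart and limb development, measured 9.40, 8.97 and 8.32 RPKM in DZNep, against 9.81, 9.70 and 9.46 RPKM in DMSO. All DZNep libraries lay below all DMSO libraries for TBX2, with a difference of -0.11 (SE 0.0521; limma adjusted p = 0.217) that did not pass. TBX2 measured 9.50 and 10.1 RPKM in Tamoxifen, against 8.13 and 9.73 RPKM in EtOH, and these groups overlapped.

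Both expressed forkhead factors lie side by side in the genome, and FOXC1 was second to TBX3 in every group. FOXC1, which acts in the eye, skeleton and blood vessels, measured 23.7, 21.7 and 20.3 RPKM in DZNep, against 20.2, 21.5 and 20.8 RPKM in DMSO, and the groups overlapped. FOXC1 measured 14.7 and 14.999 RPKM in Tamoxifen, against 18.2 and 17.3 RPKM in EtOH, with both Tamoxifen libraries below both EtOH libraries. FOXF2, a factor of gut and palate mesenchyme that neighbours FOXC1, measured 8.999, 8.97 and 8.49 RPKM in DZNep, against 8.10, 8.14 and 8.75 RPKM in DMSO. It measured 8.53 and 8.69 RPKM in Tamoxifen, against 9.14 and 9.71 RPKM in EtOH, where the groups did not overlap. In bulk RNA, fewer cells that express a gene and less RNA per cell cannot be told apart.

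PAX9, of tooth, thymus and oral epithelium, measured 7.89, 7.80 and 6.34 RPKM in DZNep, against 6.22, 7.08 and 7.16 RPKM in DMSO. It measured 6.33 and 6.74 RPKM in Tamoxifen, against 7.12 and 6.83 RPKM in EtOH. It was the one paired box factor above 1 RPKM: PAX8 reached 0.0729 RPKM (DZNep 1), and PAX2, PAX3 and PAX7 stayed lower. CDX2, a master regulator of intestinal epithelium, measured 6.12, 5.47 and 5.24 RPKM in DZNep, against 5.95, 5.09 and 4.49 RPKM in DMSO. It measured 5.29 and 5.38 RPKM in Tamoxifen, against 4.88 and 6.17 RPKM in EtOH. The groups of both experiments overlapped for CDX2, and those of the chemical experiment for PAX9.

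**Figure D1:**
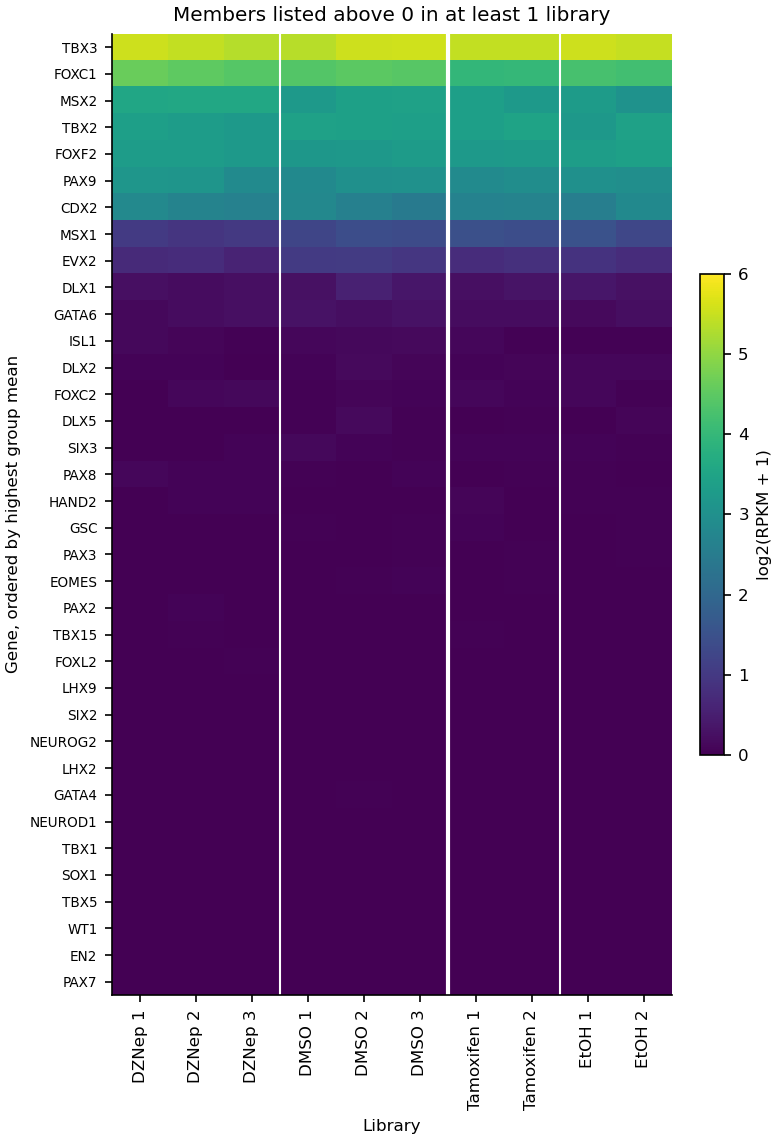
Log2(RPKM + 1) by colour of the 36 genes listed above 0 in at least 1 of the 10 libraries (rows, ordered by highest group mean; columns, libraries by group, thick white line between experiments). Colour is visible down to GATA6, and each row keeps nearly the same colour across DZNep, DMSO, Tamoxifen and EtOH.

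The first comparison asked whether DZNep raised these factors. It raised none past the threshold and lowered MSX1 and EVX2, both already weak. MSX1, a homeodomain factor of tooth and palate, measured 1.03, 0.911 and 0.993 RPKM in DZNep, against 1.38, 1.69 and 1.60 RPKM in DMSO. Every DZNep library lay below every DMSO library, and the change was -0.37 (95% interval -0.51 to -0.23; SE 0.0572; limma adjusted p = 0.0128). EVX2, which lies at the 5′ end of the HoxD cluster and takes part in digit development, measured 0.645, 0.702 and 0.514 RPKM in DZNep, against 1.04, 1.05 and 0.917 RPKM in DMSO. These groups did not overlap either, with a change of -0.31 (95% interval -0.44 to -0.17; SE 0.0538; limma adjusted p = 0.0180). The call of MSX1 was lost without DZNep 2 (adjusted p = 0.0512), and that of EVX2 without DMSO 2 (0.0682).

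Of the 32 members above 0 in at least 1 library of that experiment, 0 were called higher, where 10.3% of all 17137 genes fitted were (17.3% in either direction). The 2 called lower compare with 7% of all genes, so either share rests on few members. Without adjustment, 4 members had p under 0.05, against 5606 of the 17137 genes. The members' median change was -0.0051, with 14 above and 18 below 0, and the median over all genes was 0.0038. Calls were rare among very weak genes in general: 2.93% of the 4065 genes with a mean under 0.1 RPKM were called, and 0 of the 21 members there. Among the 8 members with a mean of at least 1 RPKM, 1 was called, against 21.8% of 11143 genes at that level.

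MSX2, a factor of skull and hair follicle and the closest relative of MSX1 here, had higher values in DZNep. It measured 10.7, 11.1 and 11.1 RPKM in DZNep, against 8.36, 9.55 and 9.76 RPKM in DMSO. The groups did not overlap, and the difference of 0.23 (95% interval 0.071 to 0.38; SE 0.0625) missed the threshold (limma adjusted p = 0.0603). It passed when genes averaging under 1 RPKM were left out of the fit (adjusted p = 0.0310). In that fit 1 of 8 members was higher and 1 lower, and 16.6% of 11143 genes were higher and 11.1% lower, 27.7% in all. It also passed with robust variance estimates (0.0491). DLX1, a factor of forebrain interneurons, measured 0.182, 0.139 and 0.178 RPKM in DZNep, against 0.210, 0.468 and 0.290 RPKM in DMSO. Its groups did not overlap, with a difference of -0.18 (SE 0.0700; limma adjusted p = 0.143).

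In all, DZNep and DMSO libraries did not overlap for 6 of the 32 members. MSX2 was higher in every DZNep library, as were 20.7% of all genes, and MSX1, EVX2, DLX1, TBX2 and DLX5 were lower, as were 15.8% of all genes. For the abundant members whose groups overlapped, the intervals describe variation among libraries and do not bound a change between cultures. The 95% interval ran from -0.24 to 0.14 for TBX3, from -0.084 to 0.22 for FOXC1 and from -0.044 to 0.19 for FOXF2. It ran from -0.14 to 0.32 for PAX9 and from -0.15 to 0.35 for CDX2. Both of these upper limits were larger in size than the called change of EVX2 (-0.31).

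**Figure D2:**
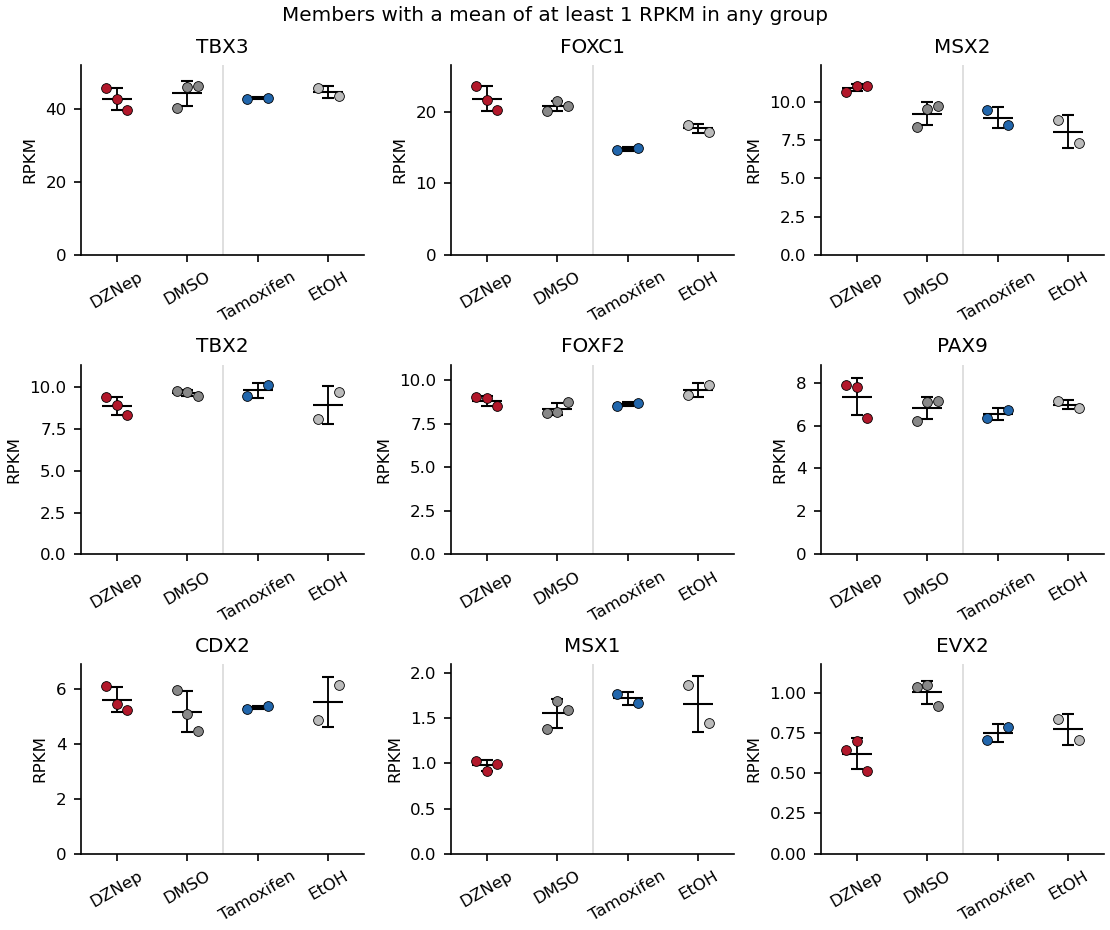
RPKM in each library of the 9 genes that averaged 1 RPKM or more in any group, with the mean and SD of each group, DZNep left of DMSO and Tamoxifen left of EtOH. MSX1 and EVX2 lie lower in all 3 DZNep libraries than in all 3 DMSO libraries, MSX2 lies higher, and FOXC1 is lower in both Tamoxifen than in both EtOH libraries.

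Silent members stayed at or next to 0 after DZNep. Of the 27 genes at 0 in every DMSO library, 24 were also at 0 in every DZNep library. The other 3 were PAX2 of the kidney, WT1 of kidney and gonad, and PAX7 of muscle stem cells. PAX2 was listed at 0.0087 RPKM in DZNep 1, 0.0380 in DZNep 2 and 0 in DZNep 3. WT1 was above 0 in DZNep 3 (0.0099 RPKM) and PAX7 in DZNep 1 (0.0060 RPKM), each in 1 library only. In the other direction, 31 genes were at 0 in every DZNep library, and 7 of them were above 0 in at least 1 DMSO library. The count in this other direction was not made over all genes in either experiment, so it has no share to be set against. Over all genes, 7864 were at 0 in every DMSO library, and 6906 of these were also at 0 in every DZNep library. The 24 of 27 members are near that share, so staying at 0 was not particular to the members.

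DLX5, a factor of skull and jaw, was above 0 in all libraries of DMSO and at 0 in all of DZNep. It was listed at 0, 0 and 0 RPKM in DZNep, against 0.0240, 0.117 and 0.0208 RPKM in DMSO (limma adjusted p = 0.213). Among 24043 genes 0.183% showed that pattern and 0.212% the opposite one. No member reached 0.1 RPKM in every DZNep library while staying below it in every DMSO library, although 42 members were below 0.1 RPKM in every DMSO library. Of all genes 0.27% did. Among the 10694 genes below 0.1 RPKM in every DMSO library the share was 0.608%, and 0 of 42 members is near it. The count was also 0 at 0.5 RPKM (0.266% of genes) and at 1 RPKM (0.233% of genes), and 0 members crossed any of the 3 levels downward, where 0.146%, 0.2% and 0.233% of genes did.

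The number of the 56 genes above 0 was 20, 20 and 19 in the DZNep libraries, against 21, 23 and 24 in DMSO. The summed RPKM of the 47 genes with every group mean under 1 RPKM was 0.527, 0.638 and 0.655 in DZNep, against 0.767, 1.13 and 0.944 in DMSO. Both quantities were lower in every DZNep library than in every DMSO library. Sets of other genes of the same size were not counted or summed, so these quantities have no share to be set against. Over all genes the number above 0 was 15404, 15101 and 15256 in DZNep, against 15142, 15108 and 15223 in DMSO, and overlapped. DLX1 and GATA6, a factor of endoderm and heart, make up much of these sums. GATA6 measured 0.0906, 0.143 and 0.182 RPKM in DZNep, against 0.217, 0.158 and 0.219 RPKM in DMSO, and its groups overlapped. In the genetic experiment 22 and 23 genes were above 0 in Tamoxifen, against 21 and 23 in EtOH. The sums there were 0.740 and 0.680 RPKM in Tamoxifen, against 0.699 and 0.726 RPKM in EtOH, and they overlapped.

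**Figure D3:**
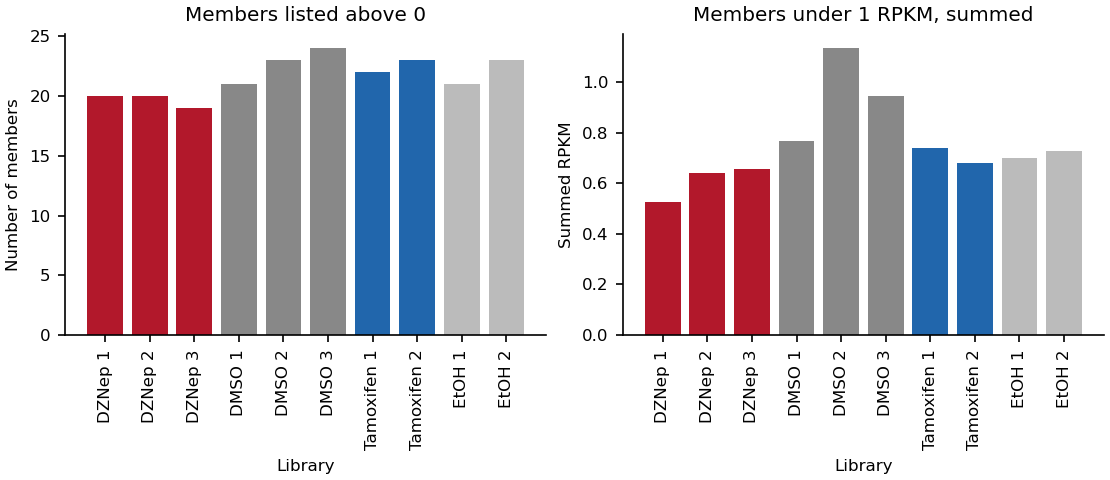
Left, the number of the 56 genes listed above 0 in each library. Right, the summed RPKM of the 47 genes under 1 RPKM in every group mean. The DZNep bars (19 to 20 genes, 0.527 to 0.655 RPKM) are lower than the DMSO bars (21 to 24 genes, 0.767 to 1.13 RPKM), and the Tamoxifen and EtOH bars overlap.

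The second comparison asked the same of organoids given Tamoxifen. None of the 28 members above 0 in that experiment was called higher or lower by limma, but the fit called only 1 of 16382 genes, 0.0061% higher and 0% lower. Without adjustment 3181 genes and 1 member, FOXC1, had p under 0.05. With 2 libraries a group the comparison had 2 residual degrees of freedom, and the count over all genes rose to 230 when genes averaging under 1 RPKM were left out. That is 2.07% of 11123 genes, 0.692% higher and 1.38% lower, with 0 of 8 members.

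FOXC1 had the largest difference of any member there, -0.24 (95% interval -0.37 to -0.11; SE 0.0465; limma adjusted p = 0.151). The difference was -0.12 for FOXF2 (SE 0.0552; limma adjusted p = 0.348), 0.14 for MSX2 (adjusted p = 0.540) and 0.13 for TBX2 (adjusted p = 0.536). MSX1 measured 1.77 and 1.67 RPKM in Tamoxifen, against 1.87 and 1.44 RPKM in EtOH, and EVX2 measured 0.708 and 0.786 RPKM in Tamoxifen, against 0.839 and 0.705 RPKM in EtOH. Both overlapped, with differences of 0.038 (95% interval -0.24 to 0.32) for MSX1 and -0.020 (95% interval -0.18 to 0.14) for EVX2. In FOXC1, FOXF2, PAX9, TBX3 and DLX2 both Tamoxifen libraries were lower than both EtOH libraries, as in 20.3% of all genes. ISL1, of motor neurons and heart, was higher in both, as were 30.4% of all genes, at 0.0725 and 0.0303 RPKM in Tamoxifen, against 0.0221 and 0.0206 RPKM in EtOH.

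Silent genes also stayed silent with Tamoxifen. Of 31 members at 0 in both EtOH libraries, NEUROG2, LHX2 and SIX2 were above 0 in 1 Tamoxifen library each, at 0.0123 RPKM or less. Of 29 at 0 in both Tamoxifen libraries, NEUROD1 was above 0 in EtOH 2, at 0.0104 RPKM. Over all genes, 8319 were at 0 in both EtOH libraries, and 7634 of these were also at 0 in both Tamoxifen libraries. The 28 of 31 members at 0 in both groups are near that share. No member crossed 0.1, 0.5 or 1 RPKM between the groups in either direction. Of 24016 genes, 0.229%, 0.229% and 0.192% did so upward and 0.229%, 0.0958% and 0.196% downward. Among the 10831 genes below 0.1 RPKM in every EtOH library, 0.508% crossed it upward, and 0 of the 45 members there is near that share. Nor was any member above 0 in both libraries of one group and at 0 in both of the other, as 0.487% of genes were for Tamoxifen and 0.475% for EtOH.

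**Figure D4:**
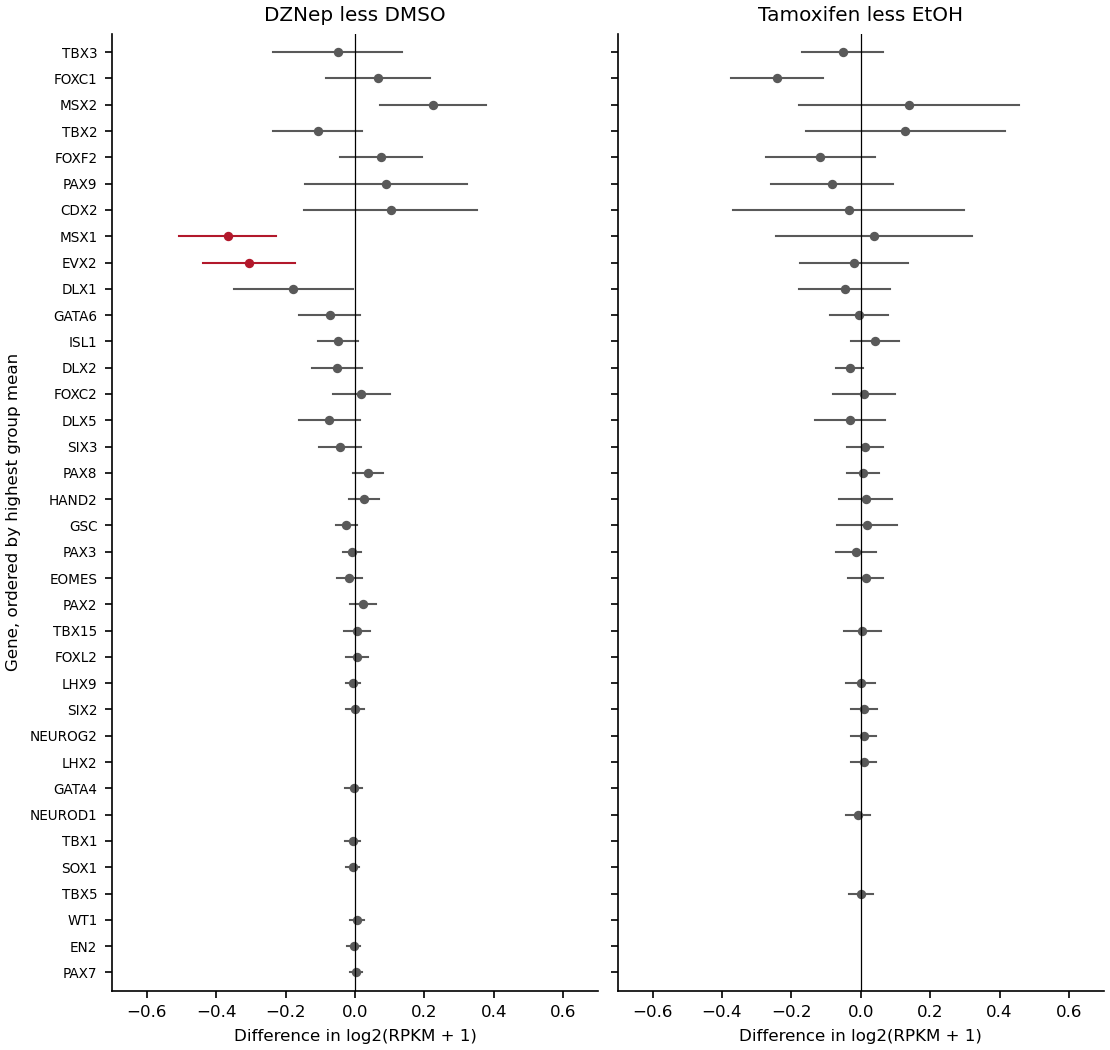
Differences in log2(RPKM + 1) with 95% intervals from limma, DZNep less DMSO on the left and Tamoxifen less EtOH on the right, for the genes above 0 in at least 1 library. Genes at 0 throughout an experiment have no point. MSX1 (-0.37) and EVX2 (-0.31) in red are the calls, both for DZNep, and weak genes further down sit close to 0.

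The effects of the treatments were then compared in 1 fit over all 10 libraries. None of 36 members differed past the threshold by limma, where 11.4% of 17530 genes did, 6.5% with a higher and 4.85% with a lower effect of DZNep than of Tamoxifen. Without adjustment 5 members had p under 0.05, against 4704 genes. The DZNep effect less the Tamoxifen effect was -0.41 for MSX1 (SE 0.112; adjusted p = 0.0575), -0.29 for EVX2 (SE 0.0843; adjusted p = 0.0696) and 0.31 for FOXC1 (SE 0.0867; adjusted p = 0.0614). With genes averaging under 1 RPKM left out, FOXC1 passed (adjusted p = 0.0404), the one call among 8 members, where 10.6% of 11155 genes had a higher and 8.79% a lower effect of DZNep. The difference passed for FOXC1 also without DZNep 3 (adjusted p = 0.0310), and for MSX1 without DMSO 1 (-0.46, adjusted p = 0.0425) or EtOH 1 (-0.52, adjusted p = 0.0325). With all 10 libraries, neither MSX1 nor EVX2 was shown to respond differently to the treatments.

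Some Polycomb subunits were called with DZNep, against 17.3% of all genes fitted and 21.8% of those with a mean of at least 1 RPKM, as all 31 of these genes had in some group. Of 11 PRC2 genes, EZH2, the core subunit SUZ12 and the accessory subunit PHF19 fell, and EZH1 rose. SUZ12 measured 18.8, 19.5 and 19.0 RPKM in DZNep, against 22.3, 22.2 and 23.3 RPKM in DMSO (-0.23, SE 0.0335; limma adjusted p = 0.0104). EZH1 measured 19.3, 17.99 and 16.9 RPKM in DZNep, against 13.2, 14.99 and 14.9 RPKM in DMSO (0.31, SE 0.0700; limma adjusted p = 0.0343). PHF19 changed by -0.30 (SE 0.0555; limma adjusted p = 0.0204), a call lost without DZNep 1 (0.0505), DZNep 2 (0.0729) or DMSO 2 (0.0689). The list's median change was -0.0029, next to 0.0038 over all genes. EZH2 and EZH1 each lost their call under 7 of 15 alternatives, EZH2 with limma adjusted p of up to 0.112 and EZH1 of up to 0.125. Among these were leaving out DZNep 1, DZNep 2, DMSO 1 or DMSO 2 for both, DZNep 3 for EZH2 and DMSO 3 for EZH1.

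Of 20 PRC1 genes, 2 rose and 4 fell with DZNep (median change -0.070), where 10.3% of all genes rose and 7% fell. The risen ones were the ubiquitin ligase RING1 (0.36) and the CpG-binding subunit KDM2B (0.18), and the falls with the smallest p were the chromodomain protein CBX6 (-0.35) and PCGF3 (-0.39). Each of these 4 calls was lost without DZNep 2 (0.0534 for RING1, 0.0816 for KDM2B, 0.0699 for CBX6 and 0.0889 for PCGF3) and without DMSO 2 or DMSO 3, those of KDM2B and PCGF3 also without DZNep 1, and those of CBX6 and PCGF3 without DZNep 3. The H3K27 demethylases KDM6A and KDM6B did not pass (0 of 2; changes of -0.04 and -0.33). With Tamoxifen 0 of these 33 genes were called.

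Relatives of the 56 genes, 52 factors of the same families outside the list, showed what the list leaves out. Of these 19 were at 0 in all 10 libraries, 9 had a mean of at least 1 RPKM in a group, and 28 were fitted in the chemical experiment. With DZNep 4 rose and 3 fell, where 10.3% of all genes rose and 7% fell, with a median change of 0.0089, and with Tamoxifen 0 of 28 were called. BARX2, of muscle and epithelial budding, rose by 0.44 (SE 0.0515; limma adjusted p = 0.0055), and SIX5 by 0.32 (adjusted p = 0.0250). SIX5 lost its call without DZNep 1 (0.0658), DZNep 2 (0.0816) or DMSO 2 (0.0870).

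NKX2-9, which also rose, was nearly silent without DZNep. This factor of the ventral neural tube measured 0.399, 0.238 and 0.163 RPKM in DZNep, against 0.0257, 0.0499 and 0.0222 RPKM in DMSO. It measured 0.0229 and 0.134 RPKM in Tamoxifen and was listed at 0 in both EtOH libraries. The DZNep change was 0.29 (SE 0.0657; limma adjusted p = 0.0350), and the call was lost without DZNep 2 or any single DMSO library (adjusted p of up to 0.0960). NKX2-9 lies next to PAX9 in the RefSeq gene order, and PAX9 itself overlapped between DZNep and DMSO (0.090, SE 0.0949; limma adjusted p = 0.565).

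The relatives that fell were SOX7 of endothelium (-0.40, SE 0.0808; limma adjusted p = 0.0256), TBX6 of presomitic mesoderm (-0.16, adjusted p = 0.0460) and MSX3 of the dorsal neural tube (-0.068, adjusted p = 0.0297). SOX7 measured 1.51, 1.39 and 1.07 RPKM in DZNep, against 2.19, 2.003 and 1.997 RPKM in DMSO. The calls of TBX6 and MSX3 were lost without DZNep 2 (adjusted p = 0.119 and 0.0763), DZNep 3 or any single DMSO library, and that of SOX7 without DZNep 2 (0.0709) or any single DMSO library. In the comparison of the treatments, SOX2 (0.57, SE 0.0753; limma adjusted p = 0.0050) had a higher effect of DZNep than of Tamoxifen. SOX2, of stem and neural cells, measured 23.3, 22.2 and 24.1 RPKM in DZNep, against 22.004, 20.3 and 19.6 RPKM in DMSO. It measured 14.3 and 14.4 RPKM in Tamoxifen, against 18.9 and 19.7 RPKM in EtOH.

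The nearest 2 genes on each side of 10 members comprised 34 genes outside the list, of which 22 were fitted with DZNep. Of these 6 rose and 1 fell, where 10.3% of all genes rose and 7% fell, so the shares rest on few genes. With Tamoxifen 0 of 21 were called, where 0.0061% of all genes were. MSX2's neighbours SFXN1 (0.24, SE 0.0362, limma adjusted p = 0.0119) and SPTLC1 (0.21, SE 0.0310, limma adjusted p = 0.0107) rose with DZNep. That was the direction of MSX2, which itself missed the threshold. Among the 6 was also NKX2-9, beside PAX9, whose own DZNep and DMSO libraries overlapped. SFXN1 lost its call without DZNep 2 (0.0542) or DMSO 2 (0.0583), and SPTLC1 without DMSO 2 (0.0505). FOXQ1, near FOXF2 and FOXC1, was lower in both Tamoxifen libraries than in both EtOH libraries (-0.29, SE 0.0873, limma adjusted p = 0.223), as FOXC1 was. With DZNep FOXQ1 rose by 0.21 (SE 0.0488, limma adjusted p = 0.0384), where FOXC1 and FOXF2 overlapped. That call was lost under 8 of 15 alternatives. HOXD13, a HoxD cluster gene of digits and urogenital tract next to EVX2, measured 40.6, 42.3 and 42.1 RPKM in DZNep, against 35.35, 37.3 and 36.3 RPKM in DMSO. It rose by 0.19 (SE 0.0330; limma adjusted p = 0.0165) where EVX2 fell, a call lost without DZNep 2 (0.0697) or DMSO 3 (0.0527). MSX1OS, annotated opposite MSX1, was listed at 0 in all 10 libraries. Of 10 antisense genes annotated for the 56, 7 were at 0 throughout and TBX3OS2 was the one above 0.1 RPKM. TBX3OS2 measured 8.14, 10.1 and 9.35 RPKM in DZNep, against 13.3, 13.5 and 13.8 RPKM in DMSO. Its fall of -0.51 (SE 0.0763; limma adjusted p = 0.0114) stood beside a difference of -0.050 (SE 0.0758; limma adjusted p = 0.693) for TBX3. The libraries were stranded per the labels, but the sources used here do not say whether quantification used strand. If it did not, reads of TBX3 and TBX3OS2 cannot be told apart.

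Some markers of cell types were called with DZNep too. Of all genes fitted 17.3% were called, and 21.8% of those with a mean of at least 1 RPKM. Basal markers, led by the keratins KRT5 and KRT14, summed to 6872 to 7131 RPKM in DZNep, against 5112 to 5388 RPKM in DMSO, with 3 of 8 higher and 1 lower. They summed to 4234 to 4337 RPKM in Tamoxifen, against 5292 to 5687 RPKM in EtOH. KRT5 lost its DZNep call under 7 of 15 alternatives (limma adjusted p of up to 0.165), among them leaving out any DZNep library, DMSO 2 or DMSO 3. The sums of luminal markers overlapped between DZNep (4410 to 4644 RPKM) and DMSO (4410 to 4592 RPKM), yet 2 of 10 were higher with DZNep and 0 lower. A sum follows its most abundant genes, so it can hide changes of others. The luminal sums were 3981 to 4190 RPKM in Tamoxifen, against 4415 to 4752 RPKM in EtOH. Epithelial markers of both kinds were thus abundant in every library.

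Mesenchymal cells express several of the 56 genes, among them FOXF2, MSX1 and TBX3. Fibroblast and smooth muscle markers summed to 8.90 to 9.94 RPKM in DZNep, against 3.61 to 4.75 RPKM in DMSO. Of 12, 9 of them fitted, DCN and ACTA2 were higher, where 10.3% of all genes were. DCN averaged 6.11 RPKM in DZNep and 2.77 RPKM in DMSO, and ACTA2 2.62 RPKM in DZNep and 0.692 RPKM in DMSO. VIM, COL1A1 and PDGFRA had lower means in DZNep than in DMSO, none past the threshold. The sums were 3.04 to 4.63 RPKM in Tamoxifen, against 3.84 to 4.33 RPKM in EtOH, and overlapped. COL3A1 and DES were at 0 in all 10 libraries. Urothelial markers summed to 96.2 to 101.8 RPKM in DZNep, against 71.3 to 74.1 RPKM in DMSO, with 2 of 4 higher, beside 10.3% of all genes. They summed to 65.5 to 67.9 RPKM in Tamoxifen, against 74.003 to 80.2 RPKM in EtOH, without overlap and with 0 of 4 called, beside the lower FOXC1 values there. Endothelial markers summed to at most 0.486 RPKM in any library, neural and neuroendocrine markers to at most 1.39 RPKM, and seminal vesicle markers to at most 0.105 RPKM, with 5 of 6 at 0 throughout. Immune markers summed to 16.2 to 18.04 RPKM in DZNep, against 13.5 to 16.9 RPKM in DMSO, and 1 of 6, CD68, had a mean of 1 RPKM or more in a group. The part of these cell types in the levels of MSX1, EVX2, MSX2 or FOXC1 was not tested.

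Most of the genes for which a start was found had a CpG-rich promoter. RefSeq start sites of GRCm38.p6 were found for 41 of the 56, and the 250 bases before the first listed start of each were examined for CG, which reads the same on both strands. The ratio of observed to expected CG had a median of 0.724 in these 41, against 0.378 in 27025 genes, and it was at least 0.6 in 80.5% of the 41, against 34.5% of all genes. Each of the 41 windows held at least 1 CG, as did 91.7% of all windows. A start was found for 7 of the 9 genes with a mean of 1 RPKM or more in a group, and not for TBX3 or TBX2. The ratio was at least 0.6 in all of these 7 (median 0.704). It was so in 14 of 18 weaker genes (0.738) and in 12 of 16 genes at 0 throughout (0.829). The silent genes thus had CpG-rich windows as well as the expressed ones.

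The windows below belong to MSX1 and EVX2, which fell with DZNep, to MSX2, which had higher values there, and to NKX6-1, which was silent and had the highest ratio of the 41. All are on the minus strand of GRCm38.p6 and are written 5′ to 3′ along the gene, with each CG in capitals.
MSX1: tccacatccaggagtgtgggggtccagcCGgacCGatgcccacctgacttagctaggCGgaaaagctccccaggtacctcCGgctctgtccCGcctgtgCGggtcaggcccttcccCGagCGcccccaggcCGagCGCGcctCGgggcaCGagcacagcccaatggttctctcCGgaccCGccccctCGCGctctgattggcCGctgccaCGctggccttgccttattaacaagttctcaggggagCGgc
EVX2: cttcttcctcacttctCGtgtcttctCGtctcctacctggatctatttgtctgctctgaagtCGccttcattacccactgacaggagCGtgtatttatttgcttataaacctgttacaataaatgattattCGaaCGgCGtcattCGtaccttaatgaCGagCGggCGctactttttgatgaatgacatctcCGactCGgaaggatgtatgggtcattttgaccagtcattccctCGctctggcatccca
MSX2: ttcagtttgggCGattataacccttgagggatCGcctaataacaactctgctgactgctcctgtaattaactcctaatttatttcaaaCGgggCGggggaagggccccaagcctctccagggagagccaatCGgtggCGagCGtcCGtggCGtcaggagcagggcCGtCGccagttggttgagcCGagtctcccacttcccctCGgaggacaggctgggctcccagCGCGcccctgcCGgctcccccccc
NKX6-1: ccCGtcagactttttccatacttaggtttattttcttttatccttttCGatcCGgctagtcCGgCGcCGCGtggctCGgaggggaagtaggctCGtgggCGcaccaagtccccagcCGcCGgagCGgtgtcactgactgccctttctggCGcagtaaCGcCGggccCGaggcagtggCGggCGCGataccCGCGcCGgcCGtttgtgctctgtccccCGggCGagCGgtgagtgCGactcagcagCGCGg
The MSX1 window (chr5:37824586-37824835) held 20 CG, and 17.7% of all windows held at least as many. The EVX2 window (chr2:74659558-74659807) held 14 (29.6% of all windows), the MSX2 window (chr13:53472781-53473030) 16 (25.6%) and the NKX6-1 window (chr5:101664712-101664961) 30 (5.63%). The 2 MSX windows were thus alike in CpG content (ratios of 0.704 and 0.676) although their genes had opposite directions with DZNep. Counts of CG describe these windows and say nothing of the factors bound there. GRCm38.p6 is not the build of the deposited values, so the windows were matched by symbol alone.

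**Figure D5:**
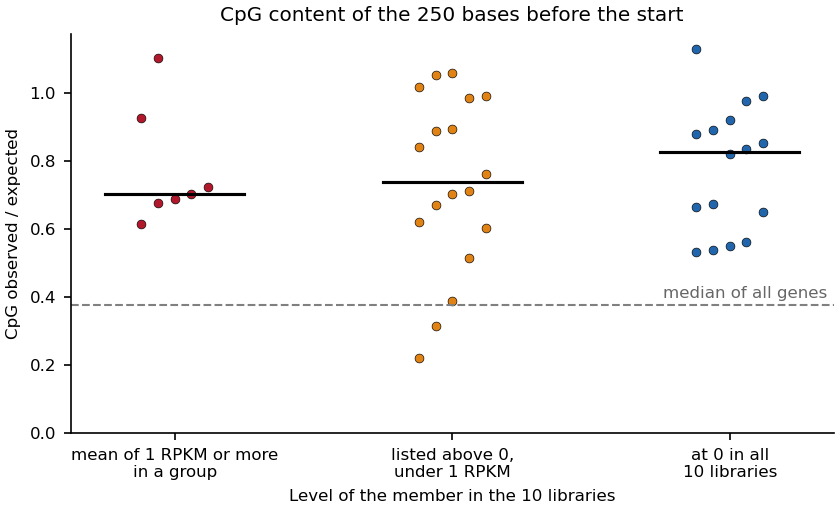
Observed over expected CG in the 250 bases before the start, for 7 genes with a mean of 1 RPKM or more in a group, 18 weaker genes and 16 genes at 0 in all 10 libraries (points, genes; solid bars, medians; dashed line, median of 27025 genes, 0.378). The 3 medians of 0.704, 0.738 and 0.829 all lie above the dashed line.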

How the data were processed

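TruSeq stranded mRNA libraries were prepared from 500 ng of TRIzol RNA, per the labels' protocols. The tools named are STAR, Cufflinks and bcl2fastq 2.18, with build mm9, per the submitters' processing notes. Their settings, the use of strand and any joint normalization of the tables are not given in the sources used here. For each experiment the authors deposited 1 table of log2 RPKM values with a floor of 0, read as log2(RPKM + 1). The chemical table held 24043 genes; the genetic one had 2 blank rows and 27 symbols turned into dates, left out, leaving 24016.

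Counts cannot be recovered, so genes above 0 in at least 1 library were fitted with limma 3.58.1 in R 4.3.3 (moderated two-sided test with a mean trend), separately for the chemical (4 residual degrees of freedom) and the genetic experiment (2), and the difference of effects in 1 fit of 4 group means over 10 libraries. Benjamini-Hochberg adjustment ran over all genes fitted, and 0.05 was the threshold. No filter on level was used beyond this, because weak genes were the question. The procedure was also run on simulated normal values cut at 0, which need not behave like sparse values of weak genes. Figures were drawn with matplotlib 3.10.9.

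The members and lists were chosen with earlier results of these data known. Named genes were members past the threshold, with a mean of at least 1 RPKM in a group, among the 3 largest rises or falls of an experiment, or at 0 in all libraries of 1 group and above 0 in all of the other; PRC2 subunits and demethylases; up to 4 genes of smallest p from other lists; and neighbours. Further genes are named where a count was 5 or fewer, after their values were seen. FOXF1A, a listed relative, was not matched. Some genes of the relative and marker lists enter their counts and sums but are not reported here by name. Gene symbols of all 56 matched the RefSeq table, used for names and gene order only.

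Alternatives were a pseudocount of 0.1, a filter of a mean of 1 RPKM, no filter, quantile normalization, median scaling, robust variances, no trend, a joint fit, a replicate block and leaving out each library. Same-numbered libraries were not taken as pairs.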

Additional observations from a re-analysis of the deposited data

Results flagged for a closer look

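The effects of DZNep and Tamoxifen differed, by the limma test of the difference over all 10 libraries, for 10 of the named genes, none of which is among the 56. The DZNep effect less the Tamoxifen effect was 0.57 on the log2 scale for SOX2 and 0.41 for HOXD13, which were higher in 3 of 3 DZNep libraries than in any DMSO library and lower in 2 of 2 Tamoxifen libraries than in either EtOH library. It was -0.40 for PHF19 and -0.46 for CBX6, both lower in 3 of 3 DZNep libraries. Adjusted p-values were 0.0050 for SOX2, 0.0029 for HOXD13, 0.0433 for PHF19 and 0.0355 for CBX6. Among markers and neighbours the DZNep effect less the Tamoxifen effect was 2.06 for UPK3A, 1.34 for KRT14, 0.72 for KRT5, 1.59 for ACTA2, 0.49 for FOXQ1 and 0.27 for SFXN1. Each of these 6 lay above every DMSO library with DZNep and below both EtOH libraries with Tamoxifen. Their adjusted p-values were 0.0014 for UPK3A, 5.25e-04 for KRT14, 0.00998 for KRT5, 0.0051 for ACTA2, 0.0202 for FOXQ1 and 0.0164 for SFXN1.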

How the results depend on the processing

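Over 15 alternatives for DZNep, 13 for Tamoxifen and 17 or 18 for the difference, results of single genes kept their direction and side of the threshold in 711 cases, lost a call in 102 and gained one in 10. The 7 reversals were of small differences, and their cause was not tested. After quantile normalization the Tamoxifen difference of MSX1 was -0.0072. The others came with 1 library left out, over which TBX3 with DZNep ran from -0.11 to 0.0019 (without DZNep 3), and the Tamoxifen difference ran from -0.079 (without EtOH 2) to 0.16 for MSX1, from -0.075 to 0.035 for EVX2 (above 0 without Tamoxifen 1, 0.013, or EtOH 1), from -0.058 (without EtOH 1) to 0.21 for EZH2 and from -0.18 to 0.11 (without EtOH 2) for CDX2. Members called with DZNep numbered 2, 1 with a replicate block (MSX1 lost its call, adjusted p = 0.0722) and 1 to 2 when a library was left out. Members called with Tamoxifen were 0 under every alternative run. Members called in the difference numbered 0, 1 with a filter of a mean of 1 RPKM and 0 to 1 when a library was left out. Members crossing 1 RPKM upward were 0 in both experiments, also with any 1 library left out, and with all libraries 0 crossed 0.1 or 0.5 RPKM. Over all genes, 2970 were called with DZNep, 1757 with no filter, 742 with a replicate block and 1055 (without DMSO 2) to 2777 when a library was left out. For Tamoxifen the number was 1, 3 with a pseudocount of 0.1, 230 with the filter, 97 with no filter, 2 with robust variances, 819 in the joint fit and 0 to 19 when a library was left out. For the difference it was 1990, 579 with a replicate block and 754 to 1949 when a library was left out. The replicate block used the labels' numbers. Same-numbered libraries did not deviate together (correlations of 0.0591, 0.0591 and -0.0675 in the chemical and 0.0400 in the genetic experiment). Such correlations cannot show whether these libraries shared a culture or mouse, so pairing is not known. Depth is unknown, so a listed 0 cannot be given an upper limit.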
